A study of Mus musculus with 31 samples.

Results

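Pax2, Pax8, Lhx1, Cdh16, Gata3, Wnt9b, Fat4 and Sall1 are 8 genes of the developing mesonephros and its tubules, followed here through whole fetal mouse gonads as a check of attached mesonephric tissue. Members were taken by symbol, and each was read from the probe set that the platform annotation assigns to that symbol alone, with the highest mean over 31 arrays where a gene had several. A probe set is a group of short array oligonucleotides that together read 1 transcript. For 7 of the 8 genes, of 18194 genes in all, such a probe set was found. Pax2 had none and was not analysed here.

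The gonads came from mouse embryos of 3 ages, which were 12, 14 and 16 dpc (dpc, days post coitum). Wv/Wv embryos carry the Wv allele of Kit on both chromosomes, a point mutation that weakens the kinase of the receptor for stem cell factor, and few primordial germ cells then populate the gonad. Wv/Wv testes gave 3 arrays at 12 dpc, 2 at 14 dpc and 3 at 16 dpc, against 1, 3 and 3 arrays of wild-type testes, and Wv/Wv ovaries gave 2, 3 and 3 arrays, as did wild-type ovaries. Each array is labelled as a biological replicate. The labels do not say how many embryos went into a sample or whether the mesonephros was removed, and p-values measure the spread between these arrays. Values are log2 signals after RMA, a summary that corrects background and normalises between arrays, so a difference of 1 is a doubling of signal. A value below 5.39, the 40th percentile of all values, is called low signal here.

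The mesonephros is the transient embryonic kidney that lies along the gonad. Its nephric duct becomes the epididymis and vas deferens in males, its tubules link the testis cords to that duct as efferent ductules, and in females both largely regress and leave remnants beside the ovary. Pax2 and Pax8 are paired-box transcription factors that specify the nephric lineage, and Gata3 and Lhx1 are transcription factors of the nephric duct. Wnt9b is the signal sent by the duct to the neighbouring mesenchyme, Sall1 is a zinc-finger factor of that mesenchyme, Cdh16 is the kidney-specific cadherin of tubular epithelium, and Fat4 is a large atypical cadherin of stroma and mesenchyme that binds Dchs1. In mice the rete beside the fetal ovary also expresses Pax8.

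For the genes whose signals moved together at 12 dpc, Gata3 and Wnt9b, and for Lhx1, which departed from them at 14 dpc, the 250 bases before the RefSeq transcript start are shown. They are given on the gene's strand in GRCm38.p6, with each CpG dinucleotide in capitals. Gata3 lies at chr2:9878601-9878850, Wnt9b at chr11:103749822-103750071 and Lhx1 at chr11:84525535-84525784, all on the minus strand.
Gata3: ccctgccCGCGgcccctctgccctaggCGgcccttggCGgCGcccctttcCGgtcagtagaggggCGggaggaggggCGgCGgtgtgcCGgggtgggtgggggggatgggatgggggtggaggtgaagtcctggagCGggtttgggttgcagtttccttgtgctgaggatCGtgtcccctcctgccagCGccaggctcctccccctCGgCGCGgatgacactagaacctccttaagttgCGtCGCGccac
Wnt9b: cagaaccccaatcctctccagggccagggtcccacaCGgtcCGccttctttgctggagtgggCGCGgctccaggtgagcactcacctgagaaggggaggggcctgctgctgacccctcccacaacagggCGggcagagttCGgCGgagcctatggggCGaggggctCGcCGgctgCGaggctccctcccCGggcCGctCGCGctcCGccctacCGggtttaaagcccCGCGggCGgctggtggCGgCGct
Lhx1: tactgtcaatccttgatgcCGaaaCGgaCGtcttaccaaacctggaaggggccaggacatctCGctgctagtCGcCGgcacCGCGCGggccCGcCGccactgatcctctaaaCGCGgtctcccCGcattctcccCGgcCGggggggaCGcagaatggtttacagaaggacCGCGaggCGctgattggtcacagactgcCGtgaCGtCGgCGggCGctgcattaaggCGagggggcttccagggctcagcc
The windows of Gata3, Wnt9b and Lhx1 held 19, 22 and 26 CpG, against a median of 6 (quartiles 2 and 16) over 32851 promoter windows of the same length. RefSeq windows were found for 7 of the 8 members, 11 windows in all, and Cdh16 had none. On either strand, none of the 11 held the motif AGATAA, which factors of the Gata3 family bind and which 10.0% of all windows hold. None held GTTAAT, part of the site of HNF1 factors (6.4% of windows), TAATTA, the core bound by many homeodomain factors (4.8%), or AAGGTCA, the site of NR5A1 (4.1%). The absence says only that these letters do not occur in these windows.

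The labelled sex was checked on marker lists. The mean log2 signal of 5 Sertoli cell markers lay between 8.38 and 11.2 on testis arrays and between 6.05 and 7.03 on ovary arrays, and that of 4 pregranulosa markers between 5.87 and 6.96 on testis arrays and between 8.51 and 10.7 on ovary arrays. The arrays fall into 2 classes by the SD of their log2 values, 10 narrow-spread arrays with an SD of 1.77 to 2.18 and 21 wide-spread arrays with an SD of 2.33 to 2.39. All 8 arrays of 12 dpc and all 3 of wild-type testes at 14 dpc were wide-spread, and all 3 of wild-type ovaries at 16 dpc were narrow-spread. The signal of Gapdh 3′ probes minus that of its 5′ probes, a measure of RNA integrity and amplification, was 0.508 to 1.125 on narrow-spread and 1.75 to 2.56 on wide-spread arrays. In ovaries of 16 dpc it was 2.07, 0.732 and 2.56 in Wv/Wv, against 0.936, 0.627 and 0.652 in wild type, and its part in the members' differences there was not tested. The sample titles name no batch. The class was taken as a technical grouping read from the values, and the reported fits hold no term for it. A class term was fitted only as an alternative, and values within each class are given below where they bear on a member. Sall1 was low on 30 of 31 arrays on the probe set used, with 4.18 to 5.40 on narrow-spread and 3.93 to 4.55 on wide-spread arrays, so its level moved with the class.

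**Figure D1:**
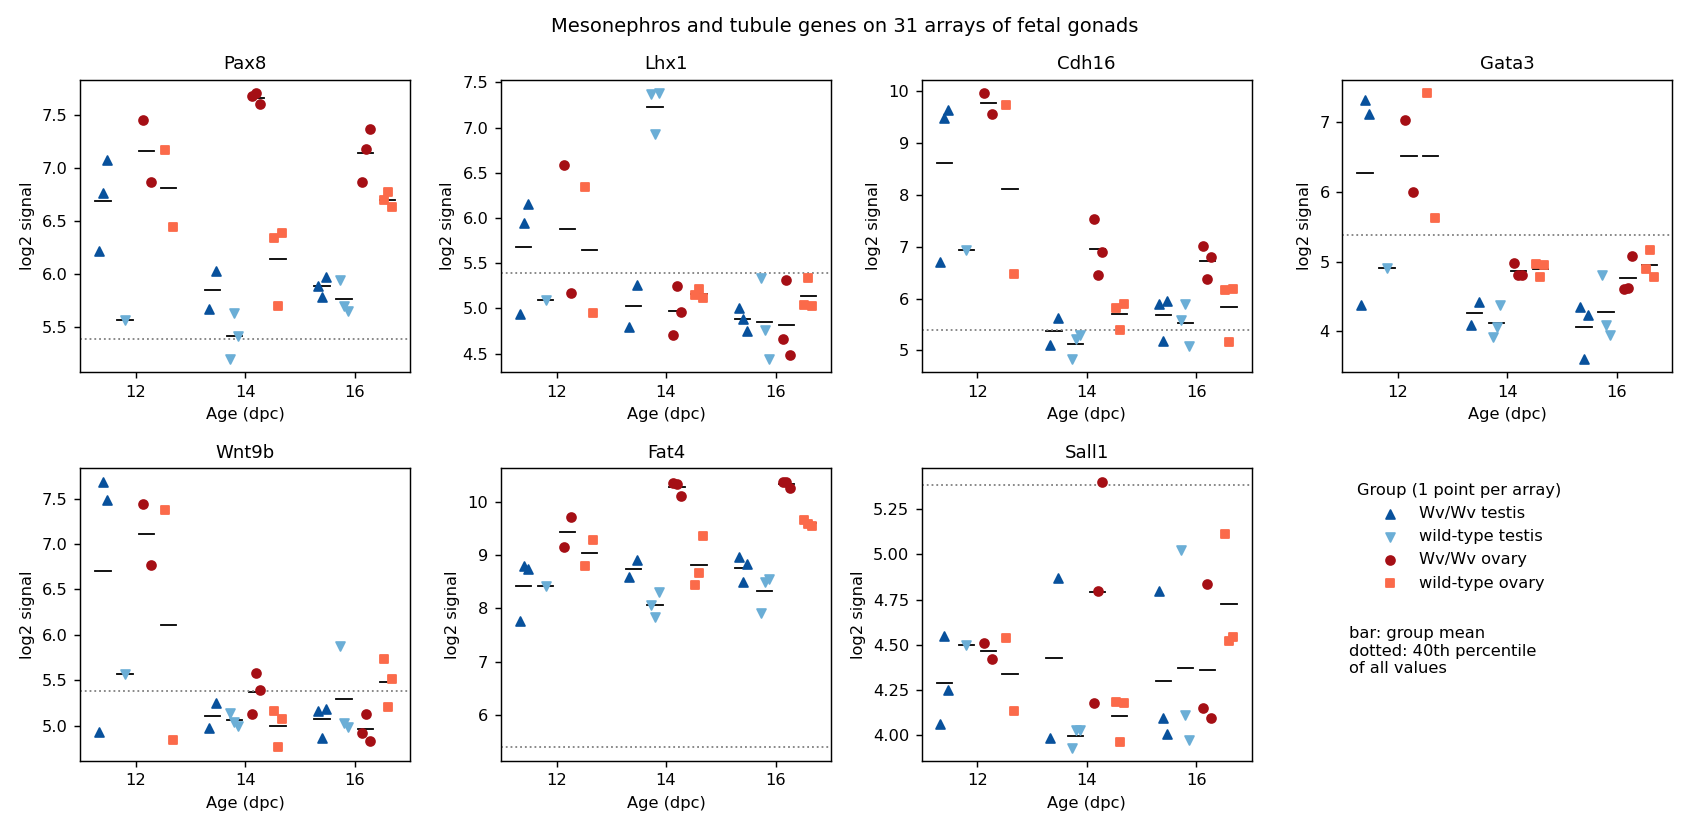
Log2 signal (y axis, scaled to each gene) of the 7 measured members against age in days post coitum (x axis), 1 point per array, with Wv/Wv and wild-type testes left of Wv/Wv and wild-type ovaries at each age. Bars mark group means and the dotted line the 40th percentile of all values, 5.39. Cdh16, Gata3 and Wnt9b are high on some 12 dpc arrays, Lhx1 is high on the 3 wild-type testis arrays of 14 dpc, and Pax8 and Fat4 are highest in Wv/Wv ovaries of 14 or 16 dpc.

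At 12 dpc the duct and tubule genes Cdh16, Gata3 and Wnt9b were far above their later levels on some arrays and at or near those levels on others, within the same sex and genotype. Cdh16 had 6.71, 9.48 and 9.63 on the 3 Wv/Wv testis arrays, against 6.94 on the wild-type testis array. It had 9.96 and 9.56 in Wv/Wv ovaries, against 9.73 and 6.48 in wild-type ovaries. The 23 arrays of 14 and 16 dpc ranged from 4.84 to 7.53. Arrays 2 and 3 of Wv/Wv testes, both arrays of Wv/Wv ovaries and array 1 of wild-type ovaries therefore lay above every later array, and the other 3 arrays of 12 dpc did not.

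Gata3 had 4.38, 7.32 and 7.13 in Wv/Wv testes, against 4.91 in the wild-type testis sample. In ovaries it had 7.04 and 6.01 in Wv/Wv, against 7.42 and 5.62 in wild type. Its 14 and 16 dpc arrays ran from 3.60 to 5.17, all of them low signal. Wnt9b, the duct's secreted signal, had 4.93, 7.68 and 7.49 in Wv/Wv testes, against 5.57 in the wild-type testis sample. Wv/Wv ovaries had 7.44 and 6.77 for Wnt9b, against 7.37 and 4.84 in wild-type ovaries, and later arrays ran from 4.76 to 5.88. Gata3 was above every later array on the same 5 arrays as Cdh16 and also on array 2 of wild-type ovaries, and Wnt9b on the same 5 arrays.

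Counted by array, 3 of the 7 members lay above all 23 later arrays on Wv/Wv testis arrays 2 and 3, where 9.41% and 10.1% of all genes did so. The same 3 members did so on Wv/Wv ovary arrays 1 and 2 and wild-type ovary array 1, where 6.42%, 5.04% and 6.75% of genes did. On Wv/Wv testis array 1 and the wild-type testis array 0 members did, against 9.1% and 6.8% of genes, and on wild-type ovary array 2 only Gata3 did, against 5.22%. Of the other members, Pax8, Lhx1, Fat4 and Sall1 were above all later arrays on none of the 8.

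**Figure D2:**
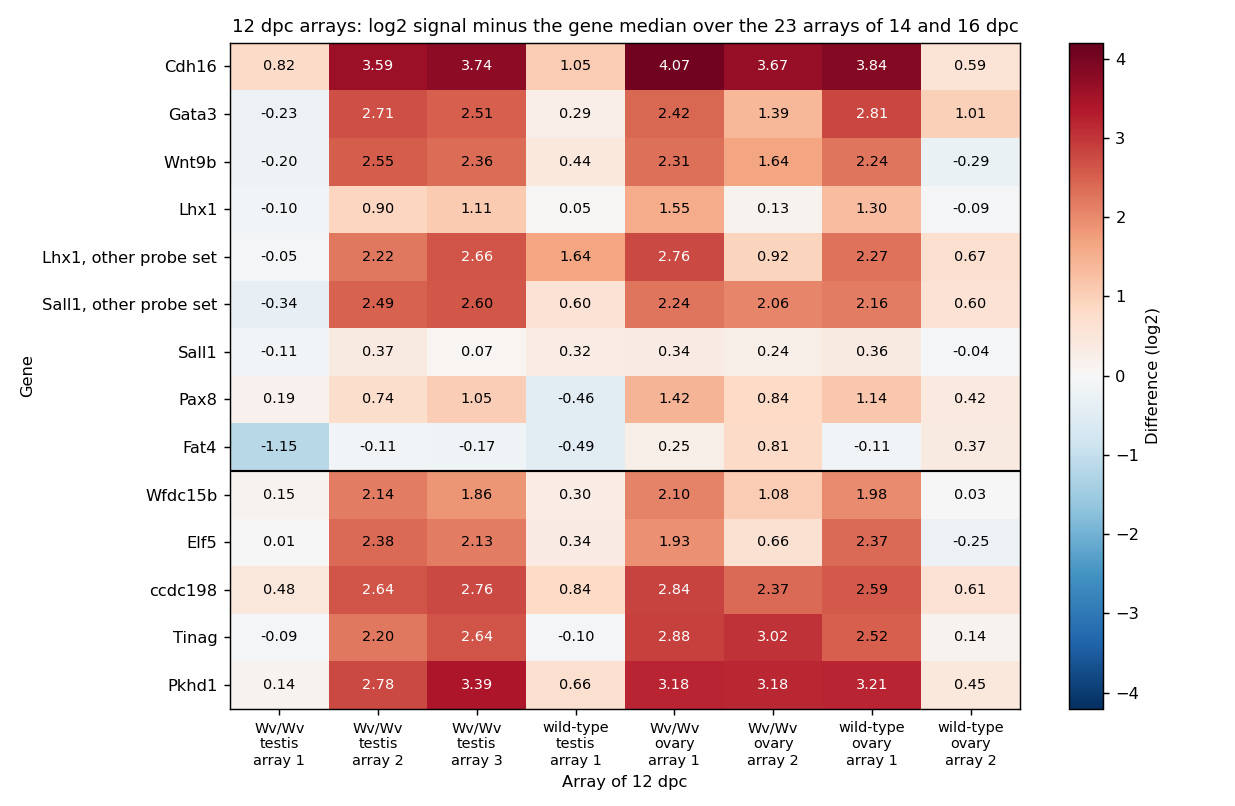
Log2 signal of each of the 8 arrays of 12 dpc (columns) minus the gene's median over the 23 arrays of 14 and 16 dpc, for the 7 members, the other probe sets of Lhx1 and Sall1 and, under the line, the 5 genes most like the members. Cdh16 is 3.59 to 4.07 above its later median on 5 arrays and 0.59 to 1.05 above it on Wv/Wv testis array 1, the wild-type testis array and wild-type ovary array 2.

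The spread between arrays of a group was unusual among genes. In wild-type ovaries of 12 dpc the 2 arrays differed by 3.25 for Cdh16, where 1 gene of 18194 differed more and the median gene differed by 0.147. For Wnt9b they differed by 2.53 and for Gata3 by 1.80, with 19 and 60 genes differing more. The 3 Wv/Wv testis arrays ranged over 2.92 for Cdh16, 2.94 for Gata3 and 2.76 for Wnt9b, with 24, 23 and 32 genes of a larger range and a median range of 0.235. Wv/Wv ovaries were closer for Cdh16, at 0.40 apart, while Lhx1 differed there by 1.42, with 71 genes differing more. All 8 arrays are of the wide-spread class, so the class does not separate them.

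Pax8 followed the same arrays less strongly, and so did Lhx1 except on Wv/Wv ovary array 2. Pax8 had 6.22, 6.77 and 7.08 in Wv/Wv testes, against 5.57 in the wild-type testis sample, and 7.45 and 6.87 in Wv/Wv ovaries, against 7.17 and 6.45 in wild-type ovaries. Lhx1 had 4.94, 5.95 and 6.15 in Wv/Wv testes, against 5.09 in the wild-type testis sample. In ovaries Lhx1 had 6.59 and 5.17 in Wv/Wv, against 6.34 and 4.95 in wild type. Lhx1 was thus above low signal on 4 of the 8 arrays. The other Lhx1 probe set had 3.95, 6.21 and 6.65 in Wv/Wv testes, against 5.64 in the wild-type testis sample. In ovaries that probe set had 6.76 and 4.92 in Wv/Wv, against 6.27 and 4.66 in wild type. Fat4 had 7.75, 8.79 and 8.73 in Wv/Wv testes, where array 1 was again the lowest, against 8.42 in the wild-type testis sample. In ovaries Fat4 went the other way, with 9.15 and 9.71 in Wv/Wv, against 8.80 and 9.28 in wild type, so that array 1 was below array 2 in both genotypes.

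The other probe set of Sall1 behaved differently from the one used. It had 3.35, 6.17 and 6.28 in Wv/Wv testes of 12 dpc, against 4.28 in the wild-type testis sample. It had 5.93 and 5.74 in Wv/Wv ovaries, against 5.84 and 4.29 in wild-type ovaries, and 2.84 to 4.67 on later arrays. These are the 5 arrays on which Cdh16, Gata3 and Wnt9b were high. Over the 31 arrays the Sall1 probe sets correlated at r = -0.08, a description only, since the values share groups and array classes. The other probe set of Wnt9b was low on all 31 arrays (r = -0.04 with the one used), so the Wnt9b values rest on 1 probe set.

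**Figure D3:**
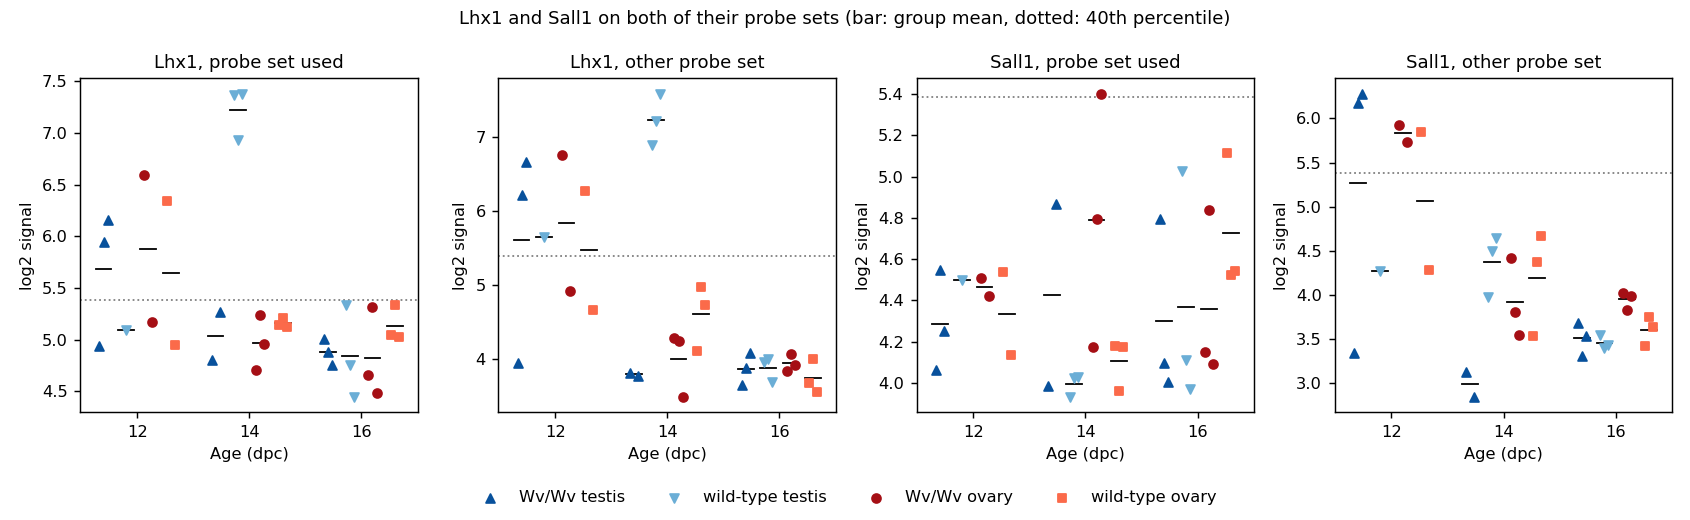
Log2 signal (y axis, scaled to each panel) of both probe sets of Lhx1 and of Sall1 against age in days post coitum, 1 point per array, with group means as bars and the 40th percentile of all values dotted. Both Lhx1 probe sets are high on the 3 wild-type testis arrays of 14 dpc, and only the other probe set of Sall1 is above the line on the 5 arrays of 12 dpc where Cdh16 is high.

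Sertoli cell markers moved against the members in Wv/Wv testes of 12 dpc. The mean of the 5 listed and measured markers was 9.76, 8.38 and 8.45 on Wv/Wv testis arrays 1, 2 and 3, against 9.37 on the wild-type testis array, and none of the 5 was low on all arrays of either group. In ovaries the mean of 4 of 4 pregranulosa markers was 8.77 and 9.52 in Wv/Wv, against 8.51 and 9.63 in wild type, lower on array 1 in each genotype. The germ cell list (5 of 5 measured) had means of 5.06, 4.44 and 4.28 on Wv/Wv testis arrays 1, 2 and 3, against 8.20 on the wild-type testis array, and Dazl, Mael and Dppa3 were low on all 3 Wv/Wv arrays. The part of these cells in the members' levels was not tested, and in bulk samples fewer cells of a type and less RNA per cell cannot be told apart.

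No comparison at 12 dpc called a member in limma at an adjusted p below 0.05. Between Wv/Wv and wild-type testes 0 of 7 were called (0.033% of genes) and 1, Pax8, had an unadjusted p below 0.05, with a difference of 1.12 ± 0.33 (SE). Between Wv/Wv and wild-type ovaries 0 were called (0.0934% of genes) and 1, Cdh16, had an unadjusted p below 0.05, at 1.65 ± 0.77. Between testes and ovaries 0 were called in Wv/Wv (0.374% of genes), with 1, Fat4, at an unadjusted p below 0.05 and a difference of -1.01 ± 0.30. In wild type 0 were called (0.253% of genes), with 2, Pax8 at -1.24 ± 0.35 and Gata3 at -1.62 ± 0.77, at an unadjusted p below 0.05. Wild-type testes have 1 array at this age, which the fit takes to vary like the others.

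The genes whose deviations from their group means were most like the mean deviation of the members were Wfdc15b (r = 0.955 over 31 arrays), Elf5 (0.942), ccdc198 (0.938), Tinag (0.919) and Pkhd1 (0.915). Elf5 is an Ets transcription factor of epithelia, Tinag a basement membrane protein of kidney tubules, and Pkhd1 encodes fibrocystin, the protein altered in recessive polycystic kidney disease. Cdh16, Gata3 and Wnt9b vary most and so weigh most in that mean. Over the 23 later arrays the correlations were 0.775, 0.68, 0.584, 0.765 and 0.535, given as descriptions since the arrays share array classes and normalisation. All of these genes were low signal on every later array. They were chosen on the 31 arrays, which include those 23, so the later correlations are no separate check. Pkhd1 ran from 3.36 to 6.61 at 12 dpc and from 2.95 to 3.71 later, and Tinag from 4.12 to 7.24 and from 3.77 to 5.12.

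Partner genes of the duct epithelium (15 of 16 measured) and of tubules and nephrons (16 of 20 measured) were read on the same 12 dpc arrays. On Wv/Wv testis arrays 1, 2 and 3, 2, 4 and 4 duct partners and 1, 3 and 4 tubule partners lay above every later array, where 9.1%, 9.41% and 10.1% of genes did, against 1 of each list and 6.8% of genes on the wild-type testis array. On Wv/Wv ovary arrays 1 and 2, 5 and 2 duct partners and 3 and 2 tubule partners did (6.42% and 5.04% of genes), against 3 and 0 duct partners and 3 and 1 tubule partners on wild-type ovary arrays 1 and 2 (6.75% and 5.22% of genes). Not all followed Cdh16. The Gdnf co-receptor Gfra1, Wnt11 and the signal Bmp7 were above every later array on Wv/Wv testis array 1, where Cdh16 was within its later range, and not on Wv/Wv ovary array 2, where Cdh16 was above it, and Gfra1 was also above on the wild-type testis array. The transcription factor Tfcp2l1 did so on the 5 arrays where Cdh16 did, and the secreted protein Wfdc2 on 4 of them. Lrp2, the endocytic receptor megalin of proximal tubules, did so on 7 of the 8, with 4.85, 6.76 and 7.15 in Wv/Wv testes, against 5.28 in the wild-type testis sample. Lrp2 had 7.61 and 7.67 in Wv/Wv ovaries, against 7.25 and 6.25 in wild-type ovaries, and at most 5.15 on later arrays. Ret, the receptor of the duct for Gdnf, was above the later arrays on none.

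Members were called as falling with age in Wv/Wv gonads, Cdh16 in both sexes, Gata3 and Pax8 in testes and Wnt9b in ovaries, and none was called in wild type. In Wv/Wv testes 3 of 7 members fell between 12 and 16 dpc and 0 rose, where 5.39% of genes were called and 2.34% fell. Cdh16 had 6.71 to 9.63 at 12 dpc, 5.10 and 5.63 at 14 dpc and 5.18 to 5.96 at 16 dpc, and fell by 2.93 ± 0.63 (adjusted p = 0.00429, limma). Gata3 fell by 2.21 ± 0.52 (adjusted p = 0.00826) and Pax8 by 0.81 ± 0.23 (adjusted p = 0.0429). Wnt9b, at -1.63 ± 0.53, had an adjusted p of 0.0774. Array 1 of 12 dpc lay near the later range, and without it 4 members were called. Without array 2 of 12 dpc only Cdh16 was called, without array 3 of 12 dpc 0 members were, and without array 2 of 16 dpc only Cdh16 was. The Pax8 call was lost without any 1 of 5 of the 6 arrays, and its other probe set gave 0.18. Sall1's other probe set fell by 1.76 ± 0.50 (adjusted p = 0.0464 with every probe set tested, 4.36% called).

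In Wv/Wv ovaries 2 of 7 fell between 12 and 16 dpc (3.69% of genes called, 1.47% lower at 16 dpc). Cdh16 had 9.96 and 9.56 at 12 dpc, 7.53, 6.45 and 6.90 at 14 dpc and 7.01, 6.38 and 6.80 at 16 dpc. It fell by 3.03 ± 0.71 between 12 and 16 dpc (limma, adjusted p = 0.0131). Wnt9b fell by 2.15 ± 0.59 (adjusted p = 0.0394), a call that leaving out any 1 of the 5 arrays ended, while Cdh16 was not called without array 1 or array 2 of 12 dpc. Gata3 differed by -1.76 ± 0.58 and Lhx1 by -1.06 ± 0.40, not called. With the array class as a term Lhx1, Gata3 and Fat4 were called as well, 5 members in all, Fat4 at 0.91 ± 0.27 in the opposite direction.

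In wild type the decline did not pass the threshold. In wild-type ovaries the arrays of 12 dpc are all wide-spread and those of 16 dpc all narrow-spread. Age and array class therefore cannot be told apart there, for members or partners. In ovaries 0 of 7 were called between 16 and 12 dpc (7.68% of genes), with 2, Cdh16 at -2.27 ± 0.71 (adjusted p = 0.0501) and Gata3 at -1.57 ± 0.58, at an unadjusted p below 0.05. Without array 2 of 12 dpc 2 members were called there. In testes, with 1 array at 12 dpc, 0 were called (1.65% of genes) and 0 had an unadjusted p below 0.05, with Cdh16 at -1.42 ± 0.89. The change with age was not tested for a difference between the genotypes.

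Among the tubule and nephron partners, Lrp2 differed between 16 and 12 dpc by -1.61 ± 0.35 in Wv/Wv testes, by -2.98 ± 0.39 in ovaries of Wv/Wv embryos and by -2.11 ± 0.39 in those of wild-type embryos. Cubn, the cubilin that works with megalin, differed in the same groups by -1.57 ± 0.35, -2.14 ± 0.39 and -1.38 ± 0.39, and all 6 differences were called. Of the 16 tubule and nephron partners 2 rose and 4 fell in Wv/Wv testes (3.05% of all genes rose and 2.34% fell), 0 rose and 2 fell in Wv/Wv ovaries (2.22% and 1.47%), and 1 rose and 3 fell in wild-type ovaries (3.01% and 4.67%). Of the 15 duct partners 1 rose and 8 fell in Wv/Wv testes, against the same shares of all genes, with the largest changes in Calb1, a calcium-binding protein, at -4.85 ± 0.32, the splicing regulator Esrp1 at -2.55 ± 0.62, Gfra1, the co-receptor for Gdnf, at -2.36 ± 0.40 and Tfcp2l1 at -1.76 ± 0.41. In Wv/Wv ovaries 0 of the 15 were called, and in wild-type ovaries 1 fell, Wnt11, a Wnt of the ureteric tip, by 0.92 ± 0.24.

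At 14 dpc Pax8 and Fat4 were called higher in Wv/Wv ovaries, and Lhx1 was called lower in Wv/Wv testes. In testes Pax8 and Fat4 also had higher means in Wv/Wv but were not called. Pax8 had 7.68, 7.71 and 7.61 in Wv/Wv ovaries, against 6.34, 5.70 and 6.39 in wild-type ovaries. Fat4 had 10.36, 10.34 and 10.10 in Wv/Wv ovaries, against 8.44, 8.66 and 9.35 in wild-type ovaries. The groups did not overlap for either gene, and the share of all genes without overlap was not counted.

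Of the 7 members these 2 rose and 0 fell, where 4.37% of genes were called, 0.291% higher in Wv/Wv. Pax8 rose by 1.53 ± 0.23 (2.88-fold, adjusted p = 0.000147) and Fat4 by 1.45 ± 0.26 (2.73-fold, adjusted p = 0.00114). Leaving out 1 array at a time moved Pax8 between 1.30 and 1.65 and Fat4 between 1.26 and 1.72, with both called each time. Within the wide-spread class Pax8 had 7.68 in Wv/Wv, against 5.70 and 6.39 in wild type, and within the narrow-spread class 7.71 and 7.61, against 6.34. The corresponding Fat4 values were 10.36, against 8.66 and 9.35, and 10.34 and 10.10, against 8.44. Cdh16 had 7.53, 6.45 and 6.90 in Wv/Wv ovaries, against 5.83, 5.40 and 5.89 in wild-type ovaries. It was not called (1.25 ± 0.63, limma, adjusted p = 0.324). The other 4 members differed by -0.19 to 0.69 and were not called.

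On other probe sets the difference was in the same direction and not called. Fat4's other probe set had 9.86, 8.87 and 9.00 in Wv/Wv ovaries of 14 dpc, against 7.52, 7.88 and 8.83 in wild-type ovaries, a difference of 1.17 ± 0.40 (adjusted p = 0.118 with every probe set tested, where 3.74% were called). For Pax8 the other probe set was low on 27 of 31 arrays and differed by 0.86 ± 0.42 (adjusted p = 0.322). On narrow-spread arrays it had 6.10 and 5.86 in Wv/Wv ovaries, against 5.51 in wild type. On wide-spread arrays it had 4.39, against 4.02 and 4.24, so its level moved with the class. The germ cell list had means of 4.46 to 6.21 in these Wv/Wv ovaries, against 11.0 to 11.4 in wild-type ovaries, with Mael low on all Wv/Wv arrays. The erythroid list (3 of 4 measured) had 5.29 to 5.71, against 7.16 to 9.61, and the pregranulosa list 10.3 to 10.6, against 10.2 to 10.4. Their part in the Pax8 and Fat4 differences was not tested.

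At 16 dpc neither Pax8 nor Fat4 was called between the ovaries on the probe sets used, and the ages were not tested against each other. Pax8 had 6.87, 7.18 and 7.37 in Wv/Wv ovaries, against 6.70, 6.77 and 6.64 in wild-type ovaries, and differed by 0.44 ± 0.23 (limma, adjusted p = 0.251). Fat4 had 10.37, 10.37 and 10.26 in Wv/Wv ovaries, against 9.66, 9.58 and 9.53 in wild-type ovaries, and differed by 0.74 ± 0.26 (limma, adjusted p = 0.108). With limma 0 of 7 members were called (3.74% of genes), and 1, Fat4, had an unadjusted p below 0.05. Fat4's other probe set had 10.08, 9.18 and 9.79 in Wv/Wv, against 8.15, 7.90 and 7.88 in wild type, and rose by 1.70 ± 0.40 (adjusted p = 0.0174 with every probe set tested, 3.52% called), and the mean over probe sets gave Fat4 1.22 ± 0.29 at 16 dpc and 1.31 ± 0.29 at 14 dpc, both called. All 3 wild-type arrays are of the narrow-spread class, so only array 2 of Wv/Wv ovaries compares within it, at 7.18 for Pax8 and 10.37 for Fat4. Averaged over the 3 ages, Pax8 rose by 0.77 ± 0.15 and Fat4 by 0.86 ± 0.17 in Wv/Wv ovaries, 2 of 7 members where 3.66% of genes were called, 0.407% higher.

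**Figure D4:**
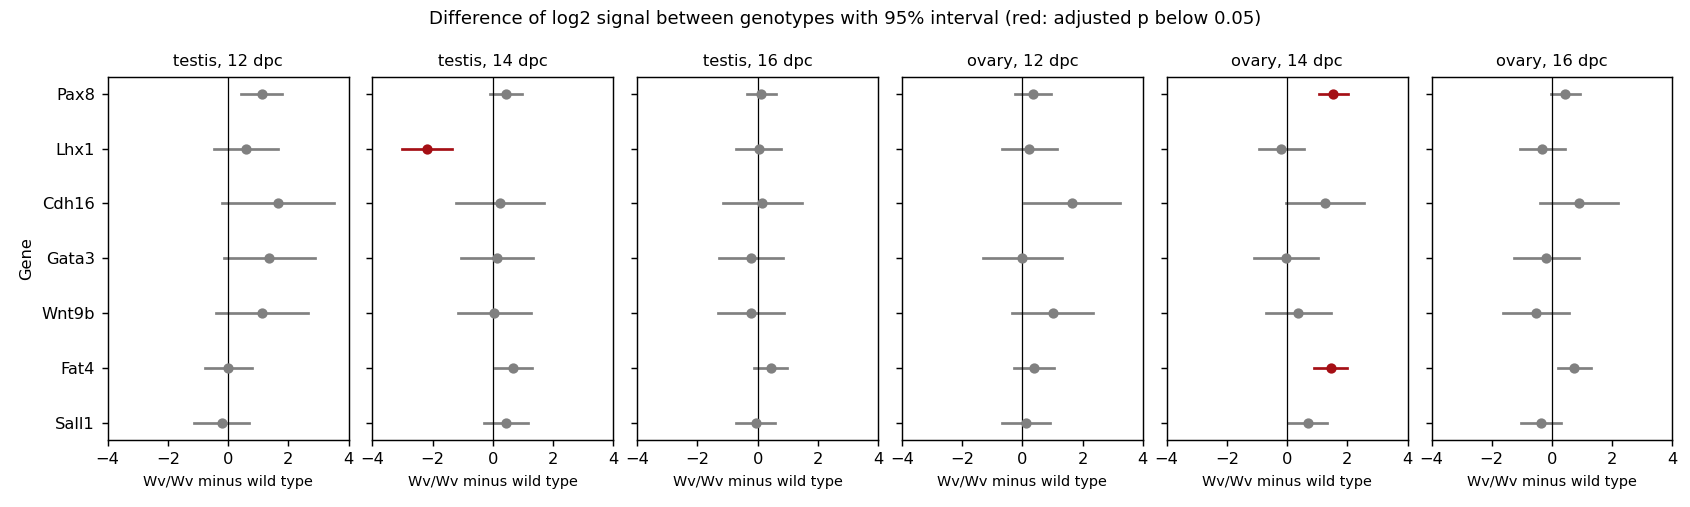
Log2 difference between Wv/Wv and wild type (x axis) with its 95% interval for each member (rows), in testes and then ovaries at 12, 14 and 16 dpc. Red marks an adjusted p below 0.05: Lhx1 in testes of 14 dpc at -2.19, and Pax8 and Fat4 in ovaries of 14 dpc at 1.53 and 1.45.

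In testes of 14 dpc Lhx1 had 4.80 and 5.26 in Wv/Wv, both low signal, against 7.37, 6.93 and 7.38 in wild type. The groups did not overlap, and the share of all genes without overlap was not counted here either. Besides the nephric duct, Lhx1 is known from cultured mouse spermatogonial stem cells, where it responds to Gdnf. Lhx1 was the 1 of 7 members called, and it fell by 2.19 ± 0.40 (adjusted p = 0.00412), where 0.594% of genes were called, all of them lower in Wv/Wv. Its other probe set had 3.81 and 3.77 in Wv/Wv testes, against 6.88, 7.22 and 7.58 in wild-type testes, and fell by 3.44 ± 0.57 (adjusted p = 0.00198, 0.378% called). Without array 1 of Wv/Wv testes, the only wide-spread array of that group, the first probe set differed by -1.96 ± 0.52 and was no longer called (adjusted p = 0.117). Within the wide-spread class, array 1 had 4.80, against 6.93 to 7.38 in wild type. Fat4 had 8.58 and 8.90 in Wv/Wv testes of 14 dpc, against 8.07, 7.83 and 8.30 in wild-type testes. It was not called but had an unadjusted p below 0.05 in limma. Pax8 had 5.67 and 6.03, against 5.20, 5.63 and 5.42, and was not called.

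The high Lhx1 level was seen in wild-type testes of 14 dpc and in no other group at 14 or 16 dpc. The other 20 arrays of those ages ran from 4.44 to 5.34, and at 12 dpc the highest array, in Wv/Wv ovaries, had 6.59. In wild-type testes Lhx1 had 5.09 at 12 dpc, 6.93 to 7.38 at 14 dpc and 4.44 to 5.34 at 16 dpc. On the 3 wild-type testis arrays of 14 dpc Cdh16, Gata3 and Wnt9b had 4.84 to 5.31, 3.91 to 4.37 and 5.00 to 5.14, all low signal. The germ cell list had means of 4.69 to 5.44 in Wv/Wv testes of 14 dpc, against 10.5 to 11.0 in wild-type testes, and its part in the Lhx1 difference was not tested. At 16 dpc, where that list was at 4.35 to 4.75 in Wv/Wv testes and 7.95 to 9.83 in wild-type testes, Lhx1 differed by 0.03 ± 0.36. The source of the Lhx1 signal was not tested at either age.

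At 16 dpc 0 of 7 members were called between Wv/Wv and wild-type testes by limma (0.484% of genes) and 0 had an unadjusted p below 0.05. Fat4 had the largest of the 7 differences, at 0.44 ± 0.26, with 8.96, 8.48 and 8.84 in Wv/Wv testes, against 7.90, 8.50 and 8.55 in wild-type testes, which overlapped. Averaged over the 3 ages 0 members were called in testes (0.627% of genes), with 2, Pax8 at 0.56 ± 0.16 and Lhx1 at -0.52 ± 0.25, at an unadjusted p below 0.05.

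Whether the genotype difference itself differed between the sexes was tested at each age, and 0 members were called at 12, 14 or 16 dpc (0%, 0.275% and 0.813% of genes). At 14 dpc the testis difference minus the ovary difference was -2.01 ± 0.54 for Lhx1 (unadjusted p = 0.00116, adjusted p = 0.243), from -2.19 in testes and -0.19 in ovaries. For Pax8 it was -1.09 ± 0.35 (unadjusted p = 0.00483, adjusted p = 0.58), from 0.43 in testes and 1.53 in ovaries, both above wild type. These were the 2 members with an unadjusted p below 0.05. At 12 and 16 dpc 0 members had one. With the array class as a term Lhx1 was called at 14 dpc, at -2.06 ± 0.49 (adjusted p = 0.0257).

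Among partners at 14 dpc, Calb1 rose by 1.28 ± 0.32 in Wv/Wv ovaries and Esrp1 fell by 3.46 ± 0.62, 1 of the 15 duct partners in each direction. Of all genes 4.37% were called there, 0.291% higher in Wv/Wv. In Wv/Wv testes Esrp1 alone of the 15 was called and fell by 4.54 ± 0.69, where 0.594% of all genes were called. Esrp1 had 4.46 and 4.06 there, against 8.53, 8.92 and 8.95 in wild-type testes, in which Cdh16, Gata3 and Wnt9b were low signal. The germ cell list had means of 4.69 to 5.44 in these Wv/Wv testes, against 10.5 to 11.0 in wild type. The part of germ cells in the partner differences was not tested in either sex. Of the 16 tubule and nephron partners Cited1, a transcriptional co-regulator of nephron progenitors, fell by 2.10 ± 0.35 and Cubn by 1.71 ± 0.35 in Wv/Wv ovaries. In Wv/Wv testes 0 of the 16 were called, against the same shares of all genes. None of the 5 measured genes of the Fat4 pathway (Fat1, Fat3, Dchs1, Fjx1 and Yap1, of 6 listed) was called between genotypes at any age in either sex. In these comparisons 0.033% to 4.37% of all genes were called, and 0 of 5 is near those shares.

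Between the sexes, Pax8 and Fat4 were lower in testes than in ovaries in Wv/Wv at 14 and 16 dpc and in wild type at 16 dpc, and Lhx1 was higher in wild-type testes of 14 dpc. In Wv/Wv at 14 dpc Pax8 had 5.67 and 6.03 in testes, against 7.68, 7.71 and 7.61 in ovaries, and Fat4 had 8.58 and 8.90, against 10.36, 10.34 and 10.10. Both were called, 2 of 7 members where 3.69% of genes were and 1.36% were lower in testes, Pax8 at -1.82 ± 0.26 (adjusted p = 7.13e-05) and Fat4 at -1.52 ± 0.29 (adjusted p = 0.0022). Without array 1 of Wv/Wv testes Fat4 was at -1.36 ± 0.38 and lost its call (adjusted p = 0.0743). At 16 dpc Pax8 had 5.89, 5.79 and 5.97 in Wv/Wv testes, against 6.87, 7.18 and 7.37 in Wv/Wv ovaries. Pax8 differed by -1.26 ± 0.23 and Fat4 by -1.58 ± 0.26, again 2 of 7, with 6.96% of genes called and 3.17% lower in testes.

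In wild type Lhx1 was the 1 member called at 14 dpc (5.93% of genes, 3.17% higher in testes), with 7.37, 6.93 and 7.38 in testes, against 5.15, 5.21 and 5.12 in ovaries, and it was higher by 2.07 ± 0.36 (adjusted p = 0.000437). Its other probe set was higher by 2.62 ± 0.51 (adjusted p = 0.00183, 4.97% of probe sets called). Pax8 and Fat4 differed by -0.72 ± 0.23 and -0.75 ± 0.26 and were not called. Without array 2 of wild-type ovaries 2 members were called, and with the array class as a term Pax8 and Fat4 were called too, at -0.68 ± 0.22 and -0.76 ± 0.24. At 16 dpc Pax8 had 5.94, 5.70 and 5.65 in wild-type testes, against 6.70, 6.77 and 6.64 in ovaries, and Fat4 had 7.90, 8.50 and 8.55, against 9.66, 9.58 and 9.53. Pax8 differed by -0.94 ± 0.23 (adjusted p = 0.00992) and Fat4 by -1.27 ± 0.26 (adjusted p = 0.00232), 2 of 7 where 9.65% of genes were called and 5.14% were lower in testes. Only array 1 of wild-type testes shares the class of those ovary arrays, and it had 5.94 for Pax8 and 7.90 for Fat4. That array had the lowest SD of all arrays, 1.77, and was left out of the fit with the class term, so it is a weak check within the class. On their other probe sets Pax8 differed by -0.97 ± 0.42 and Fat4 by -0.27 ± 0.40, neither called with every probe set tested (8.42% called).

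Averaged over ages, Cdh16 was called in Wv/Wv too. There 3 of 7 members were lower in testes (8.95% of genes called, 3.36% lower), Pax8 at -1.18 ± 0.15, Fat4 at -1.37 ± 0.16 and Cdh16 at -1.27 ± 0.39 (adjusted p = 0.0449), a Cdh16 call that was lost in 12 of the 16 fits with 1 array left out. In wild type 2 of 7 were lower (8.56% of genes called, 4.07% lower), Pax8 at -0.97 ± 0.16 and Fat4 at -0.88 ± 0.18, with Gata3 at -1.02 ± 0.35 (adjusted p = 0.0813). Gata3 was low signal on every testis and ovary array of 14 and 16 dpc.

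**Figure D5:**
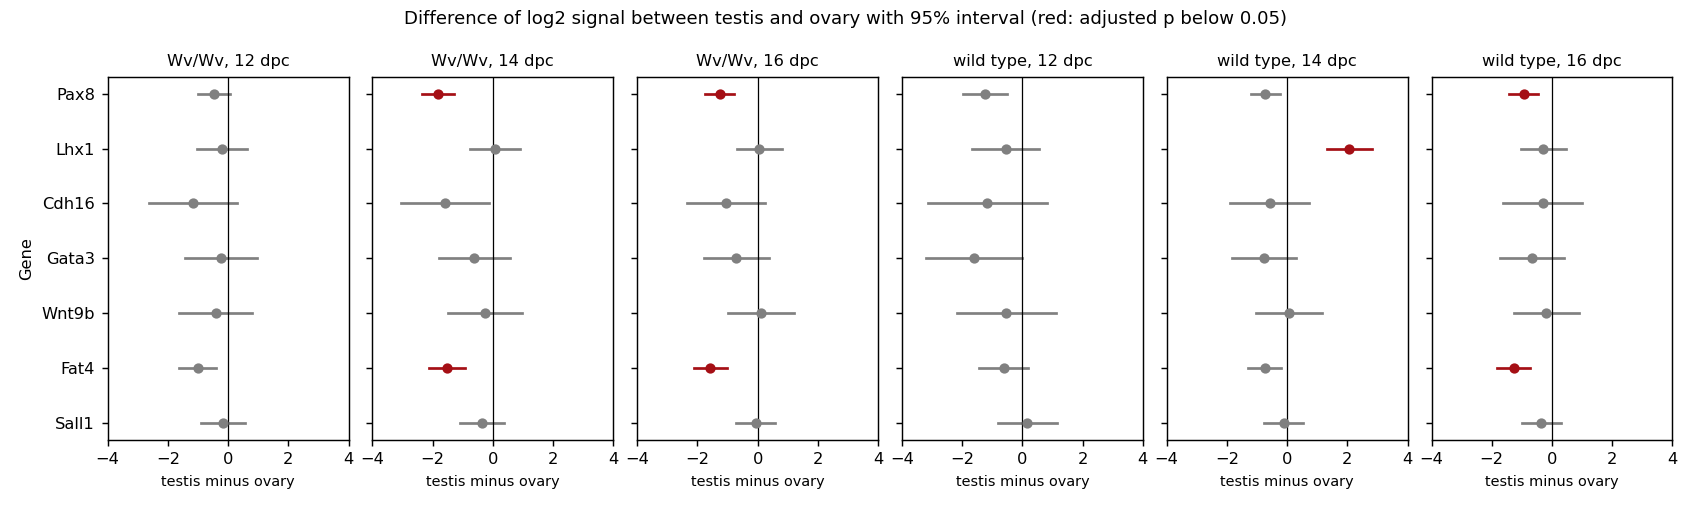
Log2 difference between testis and ovary (x axis) with its 95% interval for each member (rows), in Wv/Wv and then wild type at 12, 14 and 16 dpc. Red marks an adjusted p below 0.05: Pax8 and Fat4 are lower in testes in Wv/Wv at 14 and 16 dpc and in wild type at 16 dpc, and Lhx1 is higher in wild-type testes at 14 dpc.

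Partner genes were also compared between the sexes at 16 dpc, where 3.79% of all genes were higher and 3.17% lower in testes in Wv/Wv, and 4.5% higher and 5.14% lower in wild type. In Wv/Wv 6 of 15 duct partners were lower in testes and 0 higher, Calb1 by -6.98 ± 0.32, Emx2, a homeobox factor of gonad and duct epithelium, by -2.07 ± 0.31, and the keratins Krt18 and Krt8 by -1.92 ± 0.47 and -1.91 ± 0.45. In wild type 4 of 15 were lower, Calb1 by -5.63 ± 0.32. Of the 16 tubule and nephron partners 3 were higher and 2 lower in Wv/Wv, and 2 were higher and 2 lower in wild type. Cited1 was higher in testes by 3.22 ± 0.35 in Wv/Wv. Gdnf, the ligand of Ret, was higher in testes by 3.97 ± 0.46 in Wv/Wv and 4.19 ± 0.46 in wild type, the transcription co-activator Eya1 by 2.22 ± 0.32 and 1.85 ± 0.32, and Wnt4 differed by -1.62 ± 0.39 and -1.41 ± 0.39. Many of these partners are also expressed by somatic cells of the gonad, among them Gdnf in Sertoli cells and Wnt4 in the fetal ovary. Fat3, a relative of Fat4, was higher in testes by 2.85 ± 0.45 in Wv/Wv and 2.93 ± 0.45 in wild type, opposite in sign to Fat4.

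By the order of group means, Pax8 was highest in Wv/Wv ovaries of 14 dpc (7.67 ± 0.05, SD, n = 3). Wv/Wv ovaries of 12 dpc came next (7.16 ± 0.41, n = 2), and wild-type testes of 14 dpc were lowest (5.42 ± 0.22, n = 3). Fat4 ran from 10.33 ± 0.07 and 10.27 ± 0.14 in Wv/Wv ovaries of 16 and 14 dpc, which overlapped, to 8.07 ± 0.24 in wild-type testes of 14 dpc (n = 3 each). Lhx1 was highest in wild-type testes of 14 dpc (7.23 ± 0.26, n = 3). Cdh16 was highest in 3 of the 4 groups of 12 dpc, with 8.61 ± 1.64 in Wv/Wv testes (n = 3), 9.76 ± 0.28 in Wv/Wv ovaries (n = 2) and 8.11 ± 2.30 in wild-type ovaries (n = 2), which overlapped, while the wild-type testis array of 12 dpc had 6.94. At 14 and 16 dpc its highest group means were 6.96 ± 0.54 and 6.73 ± 0.32, in Wv/Wv ovaries (n = 3 each), which also overlapped. Pairs of members deviated together most for Gata3 and Wnt9b (r = 0.91), Cdh16 and Wnt9b (0.87) and Cdh16 and Gata3 (0.84) over the 31 arrays, and over the 23 later arrays at 0.44, 0.20 and 0.34, given as descriptions.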

How the data were processed

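Whole gonads were profiled on 31 arrays, and the authors deposited log2 signals of 45101 probe sets made with RMA, per the submitters' processing notes. RMA sets the arrays to a common distribution and so hides a shift of all RNA. Per the labels' protocols, biotinylated cRNA was made from 50 ng of total RNA by amplification from the 3′ end. Of the probe sets, 34958 carry 1 gene symbol, 932 carry several and 9211 are unlisted. The probe set with the highest mean was kept for each of 18194 genes. limma 3.58.1 in R 4.3.3 fitted group means over all 31 arrays (lmFit, eBayes, 19 residual degrees of freedom), p-values were adjusted by Benjamini-Hochberg within each comparison over all genes, and an adjusted p below 0.05 is a call. Errors are SE for differences and SD for group means. Tested on simulated data, the fit estimated known changes closely at the median but left many of the smaller ones uncalled. Of 27 pairs of arrays within groups none was a duplicate (smallest SD of the difference 0.179). The number of arrays limits the precision, most of all for wild-type testes of 12 dpc, with 1 array.

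Named genes are all 8 members, up to 4 called partner genes per list and comparison by size, and the 5 genes most like the members. Ret, Lrp2, Tfcp2l1, Wfdc2, Gfra1, Wnt11 and Bmp7 at 12 dpc were named after their values were seen. The members and lists were chosen with earlier results of these data known. Alternatives were cyclic loess, a filter on low signal, the mean over probe sets, a trended robust prior, a replicate block, an array class term, each array left out and, chosen after seeing the data, another probe set and the mean of 14 and 16 dpc alone. Replicate numbers are shared between genotypes. Deviations of arrays with the same number correlated at 0.60 to 0.72 at 16 dpc in testes. There array 1 of both genotypes is narrow-spread and arrays 2 and 3 are wide-spread, so this check cannot tell pairing from array class. In ovaries of 14 dpc the pairs correlated at -0.82, -0.59 and -0.53. There array 1 is narrow-spread in wild type and wide-spread in Wv/Wv, and arrays 2 and 3 are the reverse. In ovaries of 16 dpc the values were -0.32, -0.30 and 0.01, and in testes of 14 dpc 0.06 and 0. Ovaries of 12 dpc have 2 pairs only, both at 0.46. Figures were drawn with matplotlib 3.10.9.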

Additional observations from a re-analysis of the deposited data

How the results depend on the processing

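Of 350 single-member values under alternatives, 299 kept their direction and their side of the threshold, 49 kept the direction and lost the call, and 2 reversed, both on another probe set: Wnt9b between 16 and 12 dpc in Wv/Wv ovaries at 0.24 and Pax8 in Wv/Wv testes at 0.18. The cause was not tested. The counts below are members called. With the mean over probe sets 1 was called in each of Wv/Wv against wild-type ovaries at 16 dpc and over the ages, in testis against ovary at 16 dpc in both genotypes, and between 16 and 12 dpc in ovaries of both genotypes. The array class term was fitted without wild-type testis array 1 of 16 dpc, an exclusion made by choice. With it counts were 1 for testis against ovary in Wv/Wv at 12 dpc, 3 in wild type at 14 dpc, 5 for age in Wv/Wv ovaries and 1 for the interaction at 14 dpc. Cyclic loess gave 2 for testis against ovary in wild type at 14 dpc and 3 for age in wild-type ovaries. The low-signal filter, which kept 14522 genes and dropped Sall1, gave 1 for age in wild-type ovaries. The other probe set gave 0 between genotypes in ovaries at 14 dpc, 1 at 16 dpc and 1 over the ages. For testis against ovary it gave 1 in Wv/Wv at 14 and 16 dpc and over the ages, and 0 in wild type at 16 dpc and over the ages, and for age in Wv/Wv ovaries 1. With the replicate number as a block 1 member was called for age in Wv/Wv ovaries, where Wnt9b was at -2.18 (limma, adjusted p = 0.0597). Pax8 lost its age call in Wv/Wv testes (-0.81, adjusted p = 0.0549). Cdh16 lost its call for testis against ovary in Wv/Wv over the ages (-1.27, adjusted p = 0.0533). The block changed no other member call. Between genotypes in testes of 16 dpc, where replicate number and array class run together, 0 were called. Leaving out 1 array gave 0 to 1 calls between genotypes in testes at 14 dpc, 1 to 2 for testis against ovary at 14 dpc in each genotype, 0 to 1 for age in Wv/Wv ovaries, 0 to 4 in Wv/Wv testes and 0 to 2 in wild-type ovaries. Over all genes, calls between genotypes in ovaries of 14 dpc numbered 795, against 2048 with cyclic loess and 3743 with the class term. Low signal limits Gata3, Lhx1, Wnt9b and Sall1, low on 25, 24, 20 and 30 of 31 arrays.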
